A study of Mus musculus with 146 samples.

Results

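Whole blood of male C57BL/6J mice exposed to chronic intermittent ethanol vapor (CIE) was compared with whole blood of male mice kept in air (Air). The members were chosen by sample title, as the blood libraries marked M with V for vapor or C for control, and they number 18 of the 146 libraries of the series, 8 CIE and 10 Air. In the study, mice first drank 15% ethanol or water by choice in 2-h sessions for 20 days and were then divided into balanced treatment groups, with 10 mice of each sex planned per group. CIE males received pyrazole (68.1 mg/kg), an inhibitor of alcohol dehydrogenase, together with ethanol (1.75 g/kg). They then stayed 4 days in chambers where vapor was on for 16 h and off for 8 h, at a target blood alcohol level of 175 to 250 mg%. Air males received the same dose of pyrazole and stayed in chambers with air. Rest for 72 h and 5 days of further drinking sessions followed, so that both groups drank ethanol, the whole cycle ran 4 times, a final exposure was added, and tissue was taken 1 week later. The ages of the mice are not given in the labels. Each library is 1 mouse, named here by its group and the mouse number of its label, such as CIE 01 or Air 06. The comparison asks which transcripts in blood differ 1 week after the last exposure to ethanol vapor.

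RNA was sequenced by TagSeq, which reads the 3′ end of each mRNA, after depletion of globin mRNA and addition of ERCC spike-in RNA. Reads counted on genes had a lowest, median and highest value of 1095780, 1307460.5 and 1461395 in Air and of 979036, 1320756.5 and 1685240 in CIE. Levels are given as CPM, the counts of a gene scaled to the size of its library and by the TMM factors that edgeR uses to make libraries comparable, and differences as log2 fold changes of CIE over Air, so that a negative value means a lower level in CIE. The share of reads not assigned to a gene was 33.0%, 33.8% and 34.2% in Air and 33.6%, 34.0% and 35.7% in CIE, with CIE 16 and CIE 02 highest and the groups overlapping (two-sided exact permutation test over 43758 arrangements, p = 0.0460, 0.230 after Benjamini-Hochberg adjustment over the 5 library measures). CIE 16, CIE 02 and CIE 20 had the highest unassigned share of the 18 libraries (35.7%, 35.4% and 34.8%) and also the largest share of reads set aside for low alignment quality (26.5%, 25.9% and 25.1%). Results with the unassigned share as a covariate and without these 3 libraries, chosen after seeing the data, stand beside the main results. For ERCC, globin and mitochondrial reads and for depth, the adjusted p of the same exact permutation test was 0.656, 0.925, 0.656 and 0.765.

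The labelled tissue and sex were checked against marker genes. Blood markers were present in every library, with the red cell enzyme gene Alas2 at 8887, 14681 and 19010 CPM in Air and 12150, 15461 and 24135 CPM in CIE (lowest, median and highest), and the platelet chemokine gene Pf4 at 953, 1285 and 1780 CPM in Air and 904, 1234 and 1666 CPM in CIE. Of the lymphocyte genes, Cd79a and Cd3e had medians of 18.8 and 21.2 CPM in Air and 24.3 and 26.5 CPM in CIE, while the B cell genes Ighm and Cd79b had means of 649 and 422 CPM in Air and 644 and 427 CPM in CIE. Of the libraries titled M, 18 of 18 had more reads on Y-linked genes than on Xist. Brain genes were present too. The synaptic gene Snap25 stood at 220, 316 and 490 CPM in Air and at 225, 368 and 615 CPM in CIE, so the libraries hold blood transcripts together with transcripts typical of brain, which are described further on. The liver gene Alb was at 0 in 17 libraries and at 0.572 CPM in CIE 05.

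Some libraries stood apart from the others before any comparison of the groups. In a principal component analysis of log2 CPM, the first 3 components held 27.5%, 14.8% and 10.9% of the variance, Air 13 lay alone at -48.6 on the second and CIE 16 alone at 40.2 on the third. Air 13 had the highest summed level of the neutrophil genes, 14960 CPM, followed by Air 10 with 9365 CPM, while CIE 18, with 7022 CPM, was far above the other CIE libraries. CIE 16 had the fewest reads on genes, 979036, and the lowest TMM factor, 0.813. Values without Air 13 and without CIE 18 are given beside the results on neutrophil genes.

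Levels of some brain genes also went with the mouse number in the title. In the 6 libraries numbered 13 to 20, 3 CIE and 3 Air, the vasopressin gene Avp was at 0 to 7.85 CPM, and in the 12 libraries numbered 01 to 12, 5 CIE and 7 Air, at 13.7 to 33.9 CPM. The oxytocin gene Oxt was at 0.809 to 66.3 CPM in the former and 97.0 to 223 CPM in the latter. The median level of astrocyte genes, as percent of the brain of the same mouse, was 11.3% to 15.5% and 18.1% to 27.0%, so these 3 measures did not overlap between the ranges of numbers. Neuron genes, at 9.57% to 17.0% and 16.2% to 26.3%, and reads on genes, at 979036 to 1235786 and 1099982 to 1685240, were lower on the whole in the former and overlapped. The labels name no batch and do not say what the numbers stand for. The boundary between the ranges was placed after these levels were seen. Both groups occur in each range, and results within the ranges, and with the range as a covariate, are given beside the main results as chosen after seeing the data.

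Whole blood RNA comes from red cell precursors, platelets, lymphocytes and myeloid cells. Neutrophils and monocytes carry receptors for microbial products and cytokines, store granule proteins such as calprotectin and lactoferrin, and respond to alarm signals within hours, while type I interferons act through the kinases JAK1 and TYK2 and interferon gamma through JAK1 and JAK2 to switch on antiviral genes. Cells under stress make chaperones through the heat shock and unfolded protein responses, and through ATF4, the factor of the integrated stress response, enzymes of amino acid and one-carbon metabolism. In bulk RNA, fewer cells of a type and less RNA per cell cannot be told apart.

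In male blood, 1 of the 9584 genes that passed the filter on low counts, or 0.0104%, differed between CIE and Air at a Benjamini-Hochberg adjusted p under 0.05 (edgeR, quasi-likelihood test). That gene, Plet1, fell with CIE. At an unadjusted edgeR p under 0.05, 369 genes (3.85%) were lower and 145 genes (1.51%) higher in CIE, so that more genes lay on the lower side. The median log2 fold change over all tested genes was 0.0019, and 50.5% of the genes had a positive value. With the range of mouse numbers as a covariate, edgeR called 3 genes, Plet1, Pglyrp1 and Slc6a14 (adjusted p = 1.21e-05, 0.00899 and 0.0133), with 464 genes lower and 210 higher at an unadjusted p under 0.05. Among mice 01 to 12 alone it called 3, Plet1, Cd300ld and Cebpb, all lower, with 448 genes lower and 176 higher at that p. Among mice 13 to 20 alone it called 0, with 138 lower and 56 higher. With the unassigned share as a covariate Plet1 was the only gene called, with 269 lower and 89 higher, and without CIE 02, CIE 16 and CIE 20 edgeR called 0 genes, with 266 lower and 103 higher. Between the groups there was no overlap for 2 lower genes (0.0209%), Plet1 and Hspa5, and for 0 higher genes (0%).

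**Figure D1:**
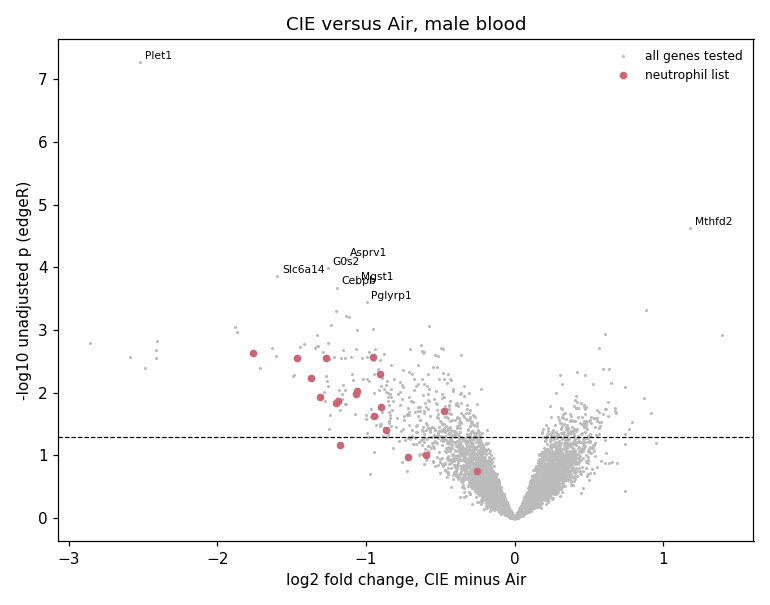
Log2 fold change of CIE minus Air (x axis) against the negative log10 of the unadjusted edgeR p (y axis) for the 9584 genes tested in male blood, with the 19 tested genes of the neutrophil list in red and the dashed line at a p of 0.05. Plet1, at a log2 fold change of -2.52, lies apart from all other genes, Mthfd2 has the smallest p among higher genes, and each of the 19 neutrophil genes that passed the filter lies left of 0, which does not hold for members below the filter.

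Plet1 (ENSMUSG00000032068.14) encodes a membrane-anchored glycoprotein of epithelial progenitor cells that some myeloid cells make as well. Its lowest, median and highest levels were 35.2, 44.8 and 151 CPM in Air and 5.10, 7.88 and 19.4 CPM in CIE. All 8 CIE libraries lay below all 10 Air libraries, with Air 15, Air 14 and Air 13 highest and CIE 16, CIE 02 and CIE 20 lowest. The log2 fold change was -2.52 (standard error 0.320, edgeR p = 5.22e-08, Benjamini-Hochberg adjusted p = 0.0005). With each library left out in turn it ranged from -2.69 to -2.26, and the adjusted p from edgeR from 0.000108 to 0.00327. The 3 highest Air libraries are the 3 numbered 13 to 20. Among mice 01 to 12 the log2 fold change was -2.07 (edgeR adjusted p = 0.000277) and among mice 13 to 20 it was -3.28 (edgeR adjusted p = 0.13), so Plet1 was not called among the latter, 3 mice against 3. The 3 CIE libraries lowest in Plet1 are also the 3 with the highest unassigned share of reads. Without them the log2 fold change was -2.23 and Plet1 was not called (edgeR adjusted p = 0.0676), and with the unassigned share as a covariate it was -2.38 (edgeR adjusted p = 0.00753). Over the other alternatives tried the adjusted p ranged from 2.12e-10 (DESeq2) to 0.00762 (edgeR). In blood from the female mice of the series, 10 CIE and 9 Air, the levels were 12.1, 20.5 and 86.3 CPM in Air and 7.81, 24.4 and 55.2 CPM in CIE, with overlapping groups and a log2 fold change of -0.62 (edgeR p = 0.142, adjusted p = 0.482). The sex-by-CIE term, which tests whether the male and female responses differ, was -1.91 for Plet1 (edgeR p = 0.00134) and missed the threshold after adjustment over all genes (adjusted p = 0.784).

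Plet1 also stands on the list of 22 skin and epithelium genes, of which 3, Plet1 among them, were tested and 0 were higher. The median log2 fold change was -0.98, which is the value of Krt15. With Plet1 among so few tested genes, the list gives no separate view of Plet1. The median was -0.58 without Air 14, -1.48 without CIE 05, -0.41 among mice 01 to 12 and -1.5 among mice 13 to 20. It was -0.43 with the neuron covariate and -0.51 without CIE 02, CIE 16 and CIE 20. Summed over this list, Plet1 included, levels were 168.3, 202.9 and 777 CPM in Air and 70.05, 147.1 and 388.5 CPM in CIE. The libraries with most of it were Air 14, Air 15, Air 08, CIE 05 and CIE 18. Its most abundant gene was Krt15, a keratin of basal epithelial cells, with 9.63, 40.1 and 392 CPM in Air and 9.34, 19.6 and 187 CPM in CIE (log2 fold change -0.98, edgeR p = 0.199). Krt15 was highest in Air 14, Air 08 and Air 15 (392, 335 and 310 CPM), where Plet1 was at 86.7, 42.2 and 151 CPM. In CIE 05 and CIE 18, the highest CIE libraries for Krt15 (187 and 174 CPM), Plet1 was at 9.16 and 19.4 CPM, the latter being its highest CIE level. Krt5, a defining keratin, was at 1.003, 4.14 and 72.4 CPM in Air and 0.550, 3.98 and 34.9 CPM in CIE. The part of epithelial transcripts in the Plet1 result was not tested.

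**Figure D2:**
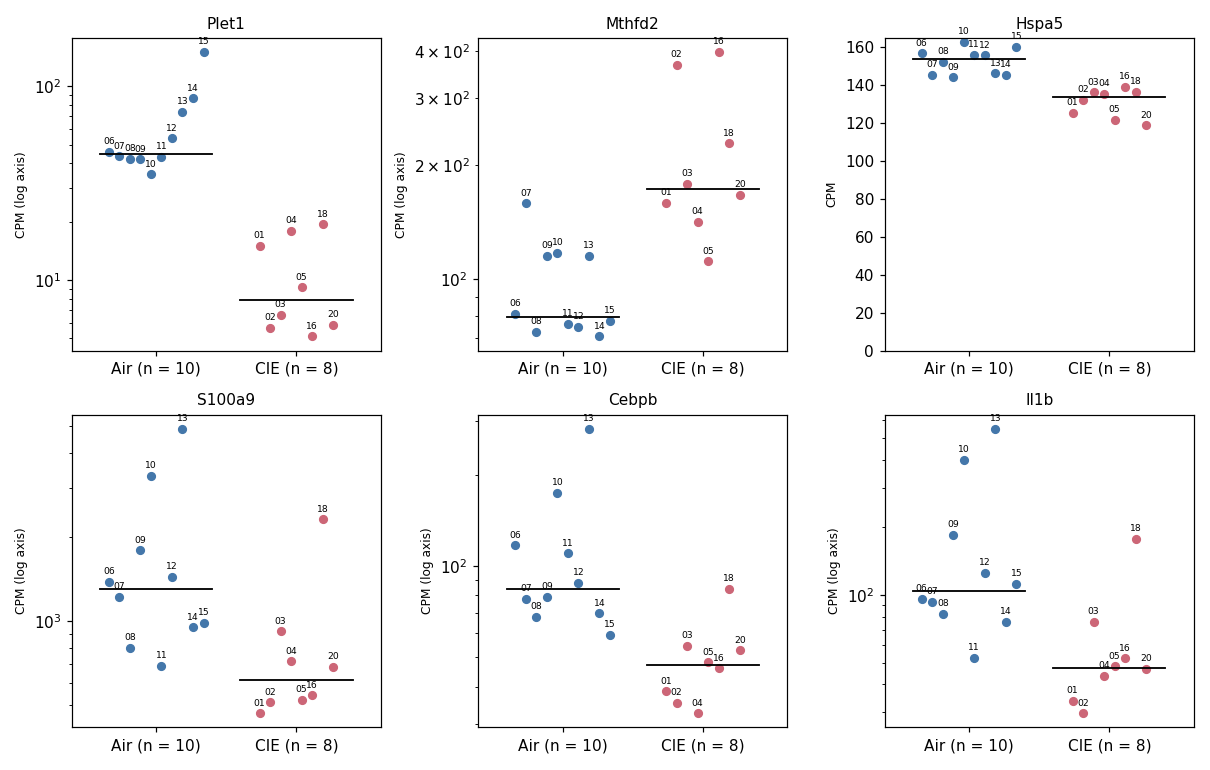
CPM of 6 genes in each male blood library, with 1 point per mouse, its number beside it, and a line at the group median. All panels have a log axis except that of Hspa5, which starts at 0. The groups are apart for Plet1 and Hspa5 and overlap for Mthfd2, S100a9, Cebpb and Il1b, of which the last 3 are highest in Air 13 and Air 10.

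Next to Plet1, the 10 genes of smallest p among those lower in CIE did not pass the adjustment, with edgeR adjusted p between 0.239 (Asprv1) and 0.445. They include genes of myeloid cells and genes known from epithelia. Cebpb, the transcription factor C/EBP beta of the myeloid lineage, was at 59.3, 83.7 and 284 CPM in Air and 32.7, 47.0 and 84.1 CPM in CIE (log2 fold change -1.19, p = 0.000209). Air 13 and Air 10 were highest, 7 of 8 CIE libraries lay below the Air median, and the groups overlapped. Pglyrp1, which encodes a granule protein that binds bacterial cell walls, was at 63.0, 90.3 and 174 CPM in Air and 29.2, 53.1 and 107 CPM in CIE (log2 fold change -0.996, p = 0.000354). Asprv1, a retroviral-like protease gene first known from skin, was at 18.7, 34.9 and 53.2 CPM in Air and 7.09, 14.4 and 30.7 CPM in CIE (log2 fold change -1.14, p = 7.47e-05). Air 15 was highest in both, and the groups overlapped, with 8 CIE libraries below the Air median for Asprv1 and 7 for Pglyrp1. Ifitm1, an interferon-induced membrane protein gene, was at 39.7, 77.7 and 198 CPM in Air and 20.5, 34.3 and 81.7 CPM in CIE (log2 fold change -1.12, p = 0.000621). It was highest in Air 13, 7 of 8 CIE libraries lay below the Air median, and the groups overlapped.

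G0s2, which encodes an inhibitor of the lipase ATGL, was at 11.9, 19.1 and 40.6 CPM in Air and 7.01, 10.0 and 15.3 CPM in CIE (log2 fold change -1.26, p = 0.000102). Mgst1, a glutathione transferase gene, was at 28.0, 45.9 and 74.2 CPM in Air and 10.6, 21.0 and 40.4 CPM in CIE (log2 fold change -1.06, p = 0.000175). In both genes 8 of 8 CIE libraries lay below the Air median, with Air 06 highest for G0s2 and Air 13 for Mgst1. Of the other 4 genes, 3 are known from epithelia. Slc6a14, an amino acid transporter gene, was at 7.41, 11.7 and 41.9 CPM in Air and 2.37, 4.36 and 8.09 CPM in CIE (log2 fold change -1.60, p = 0.000137). Emp1, a membrane protein gene, was at 50.5, 89.8 and 229 CPM in Air and 24.8, 36.7 and 88.9 CPM in CIE (log2 fold change -1.13, p = 0.000593). Krt7, a keratin gene, was at 7.78, 20.7 and 45.3 CPM in Air and 5.10, 6.74 and 17.0 CPM in CIE (log2 fold change -1.24, p = 0.000841). All 3 were highest in Air 15, as Plet1 was, and Emp1 and Krt7 next in Air 14 and Air 08, the other Air libraries with most skin and epithelium transcripts, with 8 of 8 CIE libraries below the Air median and overlapping groups. Plekhs1 was at 7.28, 10.2 and 30.5 CPM in Air and 2.83, 4.56 and 10.5 CPM in CIE (log2 fold change -1.20, p = 0.000498). Air 15 was again highest, 7 of 8 CIE libraries lay below the Air median, and the groups overlapped.

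Among genes higher in CIE, Mthfd2 (ENSMUSG00000005667.8, chromosome 6 of GRCm38 from 83305691 to 83325908) had the smallest p. It encodes a mitochondrial enzyme of one-carbon metabolism and is a target of ATF4. Levels were 70.7, 79.4 and 159 CPM in Air and 112, 172 and 397 CPM in CIE. All 8 CIE libraries lay above the Air median, and CIE 16 and CIE 02 were highest. The groups overlapped, with Air 07 above CIE 05 and CIE 04, and with Air 10, Air 09 and Air 13 above CIE 05. The log2 fold change was 1.18 (standard error 0.225, edgeR p = 2.34e-05, adjusted p = 0.112), so the gene did not pass. It passed without Air 07 (adjusted p = 0.0182) or without CIE 05 (0.0289), and its adjusted p was 0.296 without CIE 16 and 0.381 without CIE 02, the libraries with the highest unassigned share of reads. With that share as a covariate the log2 fold change was 0.80 (edgeR adjusted p = 0.703), and without CIE 02, CIE 16 and CIE 20 it was 0.77 (0.999). Over all fits with 1 library left out the adjusted p from edgeR ranged from 0.0182 to 0.381. DESeq2 gave it an adjusted p of 0.00605, and over all alternatives tried the adjusted p ranged from 0.00308 to 0.999. Among mice 01 to 12 its log2 fold change was 0.93 (edgeR adjusted p = 0.267) and among mice 13 to 20 it was 1.55 (edgeR adjusted p = 0.689). In female blood Mthfd2 was at 33.6, 116 and 815 CPM in Air and 177, 350 and 694 CPM in CIE, with overlapping groups and a log2 fold change of 1.08 (edgeR p = 0.0235, adjusted p = 0.323). The sex-by-CIE term for Mthfd2 was 0.12 (edgeR p = 0.828, adjusted p = 0.977).

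The other 9 higher genes of smallest p had edgeR adjusted p from 0.445 to 0.582, and most were expressed at low levels. The receptor gene Il9r was at 0, 5.49 and 13.7 CPM in Air and 4.73, 17.6 and 38.0 CPM in CIE (log2 fold change 1.40, p = 0.00118). The RNA gene A230059L01Rik was at 4.01, 7.26 and 12.4 CPM in Air and 9.89, 15.8 and 20.5 CPM in CIE (log2 fold change 0.88, p = 0.000485). Tsr1, which acts in ribosome assembly, was at 7.28, 9.53 and 15.5 CPM in Air and 12.5, 15.5 and 19.8 CPM in CIE (log2 fold change 0.61, p = 0.00115). CIE 18 was highest for Il9r, CIE 20 for A230059L01Rik and CIE 02 for Tsr1, with 7, 8 and 8 of 8 CIE libraries above the Air median and overlapping groups. Celsr2, an adhesion receptor gene, was at 13.1, 18.9 and 25.0 CPM in Air and 18.5, 29.1 and 37.6 CPM in CIE (log2 fold change 0.57, p = 0.00192). Sltm, an RNA-binding protein gene and the most abundant of the 9, was at 64.9, 80.1 and 96.3 CPM in Air and 89.8, 101 and 117 CPM in CIE (log2 fold change 0.31, p = 0.00522). In both genes the groups overlapped, with 7 of 8 CIE libraries above the Air median for Celsr2 and 8 of 8 for Sltm. Mapk1ip1 was at 3.82, 7.30 and 9.59 CPM in Air and 6.31, 11.2 and 14.6 CPM in CIE (log2 fold change 0.64, p = 0.00412). Btbd8 was at 6.02, 7.76 and 11.3 CPM in Air and 5.66, 12.3 and 15.6 CPM in CIE (0.60, p = 0.00425). CIE 18 was highest for Mapk1ip1 and CIE 02 for Btbd8, each with 7 of 8 CIE libraries above the Air median and overlapping groups. Zfp260, a zinc finger gene, was at 14.0, 19.6 and 28.6 CPM in Air and 24.4, 27.4 and 35.7 CPM in CIE (0.42, p = 0.00465). Asb13 was at 10.9, 12.7 and 17.2 CPM in Air and 12.9, 17.9 and 24.8 CPM in CIE (0.47, p = 0.00513). For Zfp260 and Asb13 all 8 CIE libraries lay above the Air median, and the groups overlapped. Brain expresses several of these genes as well. The blood level of Celsr2, Btbd8 and Mapk1ip1 was 14.7%, 20.5% and 29.3% of the brain level, within the 10% to 30% of most neuron genes described further on, and Celsr2 was highest in CIE 02, CIE 16, CIE 01 and CIE 04, of which CIE 04, CIE 01 and CIE 02 had most neuron transcripts. Asb13, Tsr1 and Zfp260 stood at 36.1%, 36.5% and 38.6%. With the neuron level as a covariate the log2 fold changes of Celsr2, Btbd8 and Mapk1ip1 were 0.42, 0.63 and 0.74 (edgeR adjusted p = 0.614, 0.463 and 0.297).

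Among lists with at least 9 tested genes, that of neutrophil granule and surface genes had the lowest median in CIE. Of the 33 listed genes, 19 passed the filter on low counts, and 0 of the 19 were higher in CIE. At an unadjusted edgeR p under 0.05, 15 of the 19 were lower, beside 3.85% of all genes, and 0 of them were called by edgeR, DESeq2 or limma. Their median log2 fold change was -1.06, with single values from -1.76 to -0.26, beside 0.0019 for all genes. The fold changes were negative for all 19 with TMM, with DESeq2-type size factors and with library size alone. This holds for members that passed the filter, of which 13 reached the count minimum in all 18 libraries and 2, Clec4e and Ltf, did so in under 4 CIE libraries. Where more members were fitted some were higher in CIE, 5 of 29 without a filter, 6 of 29 with DESeq2 and 2 of 24 with limma on the deposited log2 values, with medians of -0.89, -0.90 and -0.92. With the neutrophil level of each library as a covariate 10 of 19 were higher. That level comes from the same genes, so this count says nothing about their change. Genes that share a cell type can move together, so the 15 cannot be counted as 15 separate results, although not all members were highest in the same libraries.

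Summed over the 33 listed genes, the level was 2984, 4505 and 14960 CPM in Air and 2093, 3047 and 7022 CPM in CIE, with 4 of the genes at 0 in all libraries. The groups overlapped. Air 13 and Air 10 were highest, CIE 02 and CIE 01 lowest, and only CIE 18 among the CIE libraries lay above the Air median. Without Air 13, 10 of 18 tested genes were lower at an unadjusted p under 0.05, with a median of -0.69. Without CIE 18, the count was 18 of 19 and the median -1.39. Among mice 01 to 12, 16 of 18 tested genes were lower at that p and 0 were higher at any p, with a median of -1.22. Among mice 13 to 20 these counts were 3 of 18 and 0, with a median of -1.02. With the unassigned share of reads as a covariate they were 5 of 19 and 0, with a median of -0.68. Without CIE 02, CIE 16 and CIE 20 they were 8 of 20 and 0, with a median of -0.82. Among all genes, 296 of 9622 were lower at that p without Air 13 and 551 of 9826 without CIE 18. For mice 01 to 12 and mice 13 to 20 these numbers were 448 of 10049 and 138 of 8757. With the unassigned share they were 269 of 9584, and without the 3 CIE libraries 266 of 10210.

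S100a9, the most abundant gene of the list and 1 of the 2 chains of calprotectin, was at 689, 1299 and 4876 CPM in Air and 467, 612 and 2312 CPM in CIE (log2 fold change -1.06, standard error 0.375, edgeR p = 0.00931, adjusted p = 0.676). Its partner S100a8 was at 367, 776 and 2577 CPM in Air and 231, 362 and 1288 CPM in CIE (log2 fold change -1.07, p = 0.0105). Both were highest in Air 13 and Air 10, followed by CIE 18, and both overlapped between the groups. Ltf, which encodes lactoferrin, was at 2.72, 11.2 and 36.6 CPM in Air and 0.550, 3.05 and 10.1 CPM in CIE (log2 fold change -1.76, p = 0.00232). It was highest in Air 15 and Air 14, with 8 of 8 CIE libraries below the Air median and overlapping groups. The lectin receptor gene Clec4d was at 70.8, 139 and 388 CPM in Air and 53.2, 79.7 and 146 CPM in CIE (log2 fold change -0.95, p = 0.00265). Il1b, the gene of the cytokine interleukin 1 beta, was at 52.4, 104 and 550 CPM in Air and 29.8, 47.4 and 178 CPM in CIE (log2 fold change -1.47, p = 0.00276). Clec4d and Il1b were highest in Air 13 and Air 10, and in each 7 of 8 CIE libraries lay below the Air median.

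**Figure D3:**
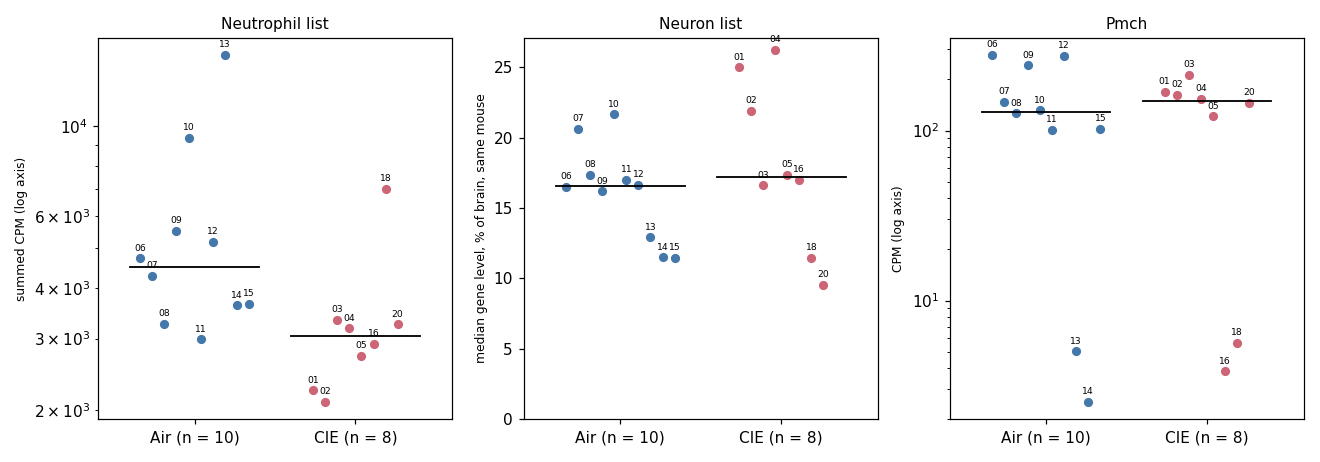
Summed CPM of the neutrophil list (left, log axis), median level of the neuron genes as percent of the brain of the same mouse (middle, axis from 0) and Pmch CPM (right, log axis) in each male blood library, with 1 point per mouse and a line at the group median. Air 13, Air 10 and CIE 18 are highest for neutrophil genes, CIE 04, CIE 01 and CIE 02 for neuron genes, and Pmch is near 0 in Air 13, Air 14, CIE 16 and CIE 18.

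Female blood gave other values for the neutrophil genes. There 18 of the listed genes passed the filter on low counts and 18 were higher in CIE, with a median log2 fold change of 0.25, beside 3701 of 7849 genes. Members below the filter were not fitted in female blood, so the count holds for those that passed. Of the 18, 1 had an unadjusted edgeR p under 0.05, beside 589 of 7849 genes (7.5%) higher and 476 (6.06%) lower at that p. Genes of other cell types differed in female blood too. Of B cell genes 0 of 26 were higher (median -0.37), of T cell genes 3 of 26 (-0.30) and of erythroid genes 33 of 34 (0.46). For the sex-by-CIE term, edgeR called 0 of 9906 genes in blood (0%), with 618 (6.24%) at an unadjusted p under 0.05, while DESeq2 called 1, with 787 at that p. Of the 20 neutrophil genes in that fit, 16 had an unadjusted sex-by-CIE p under 0.05 and none passed the adjustment. S100a9 was at 497, 1198 and 1353 CPM in female Air and 557, 986 and 3371 CPM in female CIE, with overlapping groups (sex-by-CIE term -1.30, edgeR p = 0.0132, adjusted p = 0.784). No test was made of the list as a whole.

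The sequences before the start sites of 4 genes are shown, for the called gene, for 2 of the neutrophil genes and for the higher gene of smallest p. They are the 250 bases upstream of each gene start, 5′ to 3′ on the strand of the gene, from RefSeq on GRCm38.p6, at chr9:50494275-50494524 on the plus strand for Plet1, chr9:111019042-111019291 on the plus strand for Ltf, chr3:90695722-90695971 on the minus strand for S100a9 and chr6:83317605-83317854 on the minus strand for Mthfd2. Capitals mark TTGCNNAA, a C/EBP motif read on both strands. The RefSeq starts of Mthfd2 and Ltf used here lie within the spans that GENCODE gives these genes. The Mthfd2 window therefore lies wholly inside the GENCODE gene, and the Ltf window ends inside its gene. Of 35 promoters of Plet1, Mthfd2 and neutrophil genes compared, 19 were followed by bases that open a GENCODE transcript.
Plet1: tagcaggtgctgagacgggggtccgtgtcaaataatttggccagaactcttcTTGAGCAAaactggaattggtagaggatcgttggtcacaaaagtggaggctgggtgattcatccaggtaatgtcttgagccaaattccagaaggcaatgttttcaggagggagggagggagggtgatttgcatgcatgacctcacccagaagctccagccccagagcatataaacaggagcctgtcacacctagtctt
Ltf: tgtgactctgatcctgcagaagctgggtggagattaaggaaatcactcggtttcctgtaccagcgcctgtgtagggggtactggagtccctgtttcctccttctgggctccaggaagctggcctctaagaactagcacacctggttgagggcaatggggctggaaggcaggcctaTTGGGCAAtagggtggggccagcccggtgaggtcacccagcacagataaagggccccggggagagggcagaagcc
S100a9: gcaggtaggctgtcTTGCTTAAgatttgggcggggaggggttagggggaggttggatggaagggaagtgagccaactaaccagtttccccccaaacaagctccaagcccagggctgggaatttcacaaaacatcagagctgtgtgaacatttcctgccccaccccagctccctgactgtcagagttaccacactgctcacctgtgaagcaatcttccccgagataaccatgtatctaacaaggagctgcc
Mthfd2: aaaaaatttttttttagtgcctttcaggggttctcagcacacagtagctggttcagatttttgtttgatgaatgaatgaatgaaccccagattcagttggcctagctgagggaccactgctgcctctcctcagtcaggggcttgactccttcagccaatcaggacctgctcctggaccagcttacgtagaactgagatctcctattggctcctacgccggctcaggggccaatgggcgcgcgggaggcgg

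The C/EBP motif TTGCNNAA and an ATF4 motif, TTNCATCA, were searched on both strands, both chosen after the values of Cebpb, Mthfd2 and the neutrophil genes were seen. TTGCNNAA stood in 9.56% of 32851 promoters of this length, in 10.8% of genes and in 10 of 31 neutrophil genes with a promoter sequence (32.3%). In the list of unfolded protein and integrated stress genes it stood in 3 of 39 (7.69%). TTNCATCA stood in 3.45% of promoters, in 3.91% of genes, in 7 of 39 genes of the stress list (17.9%) and in 0 of 31 neutrophil genes. The Mthfd2 window, which lies inside the GENCODE gene, holds neither. Letters that match a motif describe the sequence and do not show that a factor binds there.

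The other myeloid lists had medians nearer to 0 than the neutrophil list. The list of myeloid receptors and their signaling genes held 54 tested genes, of which 6 were higher, and 24 (44.4%) were lower and 0 higher at an unadjusted p under 0.05, beside 3.85% and 1.51% of all genes, with a median log2 fold change of -0.40 (-0.39 among mice 01 to 12, -0.44 among mice 13 to 20 and -0.22 with the unassigned share as a covariate). It shares 3 genes with the neutrophil list, Csf3r, Cxcr2 and Il1b. Ptafr, the receptor gene for platelet-activating factor, was at 14.0, 23.7 and 72.2 CPM in Air and 4.96, 8.89 and 25.9 CPM in CIE (log2 fold change -1.26, edgeR p = 0.00158), with Air 13 and Air 10 highest and overlapping groups. In females 24 of 51 tested genes of this list were higher, with a median of -0.01. When the neutrophil level of each library was added to the fit as a covariate, which was chosen after seeing the data, the median of the receptor list in males was -0.02, and Plet1 was the only gene called (log2 fold change -2.46, edgeR adjusted p = 0.00592).

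Of 31 tested monocyte genes, 4 were higher, 5 (16.1%, beside 3.85% of all genes) were lower at an unadjusted p under 0.05, and the median was -0.19. It was -0.03 with the unassigned share as a covariate, -0.05 without Air 13, -0.13 without CIE 02, -0.09 with the neuron covariate and 0.02 with the neutrophil covariate. Csf1r, the receptor gene for the monocyte growth factor, was at 62.8, 79.0 and 146 CPM in Air and 49.6, 66.8 and 88.9 CPM in CIE (log2 fold change -0.43, edgeR p = 0.0216). Hp, the haptoglobin gene, which liver and myeloid cells express, was at 29.6, 63.3 and 264 CPM in Air and 12.8, 22.4 and 91.4 CPM in CIE (log2 fold change -1.26, p = 0.00661). Both were highest in Air 13, the groups overlapped, and 7 of 8 CIE libraries lay below the Air median. Fcgr4, an antibody receptor gene, had a log2 fold change of -0.71 (p = 0.0201). Cd36, a scavenger receptor gene and the most abundant of the list, was at 321, 498 and 750 CPM in Air and 255, 401 and 771 CPM in CIE (log2 fold change -0.23, p = 0.218). Among 9 dendritic cell genes 4 were higher, with a median of -0.0035 that had no stable sign: it was above 0 in 8 of 11 other settings with all libraries, DESeq2 (0.04), limma-voom (0.12) and limma on the deposited log2 values (0.16) among them, over a range of -0.04 to 0.17. With 1 library left out it ranged from -0.09 to 0.19 (without Air 11). Among 3 basophil and eosinophil genes 1 was higher, with a median of -0.14 that was above 0 in 4 of 11 other settings, DESeq2 (0.08) and limma on the deposited log2 values (0.14) among them, and ranged from -0.74 at a minimum count of 30 to 0.30 with both sexes in 1 fit. Without Air 08, Air 11, Air 14 or Air 15 it was -0.80, -0.82, -0.83 or -0.77, and without CIE 02 it was 0.19. Hdc, the histidine decarboxylase gene, which stands on the neutrophil, basophil and hypothalamic lists, had a log2 fold change of -1.37 (p = 0.00584), with 12.2, 25.0 and 128 CPM in Air and 7.88, 9.98 and 33.2 CPM in CIE. It was highest in Air 13 and Air 10.

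Lymphocyte, platelet and red cell genes had medians near 0. Among B cell genes 19 of 26 were higher (median log2 fold change 0.09, from -0.03 without CIE 20 to 0.23 without CIE 04). Over the 11 other settings the B cell median ranged from 0.04 to 0.31. Among T cell genes 16 of 27 were higher (0.07, and -0.01 without CIE 05 or CIE 20), and among natural killer and cytotoxic genes 5 of 14 (-0.08). Of the natural killer and cytotoxic genes, 1 (7.14%) was lower at an unadjusted edgeR p under 0.05, beside 3.85% of all genes. The median of the latter was above 0 in 3 of 11 other settings, over which it ranged from -0.34 to 0.08 (with the neuron covariate). It was also above 0 without Air 11 or Air 15. For MHC class II genes the count was 11 of 12 (0.11, from 0.03 without CIE 20 to 0.25 without Air 11). Their median was -0.0087 among mice 01 to 12 and ranged from 0.05 to 0.32 over the 11 other settings. For platelet genes the count was 5 of 22 (-0.10, from -0.15 without Air 11 to -0.02 without CIE 02). For erythroid genes it was 17 of 34 (-0.0061, above 0 with DESeq2, at 0.02, and in 13 of 18 fits with 1 library left out). With the neutrophil covariate the B cell, T cell and MHC class II medians were below 0 (-0.11, -0.02 and -0.05) and the platelet and erythroid medians above 0 (0.12 and 0.07). In none of these 6 lists was a gene higher at an unadjusted p under 0.05 in edgeR with all libraries. Summed B cell genes were at 1644, 2491 and 5307 CPM in Air and 855.4, 3532 and 4954 CPM in CIE, with CIE 04 lowest and overlapping groups. The remaining globin genes gave 1 of 4 higher (median -0.04, above 0 among genes higher in blood and without CIE 05, Air 07 or Air 09) and the endothelial genes 2 of 3 (0.0095, below 0 with limma-voom, at -0.01, and in 9 of 18 fits with 1 library left out).

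Interferon genes were taken in 3 lists. Of 31 tested genes of the signaling pathway itself, 7 were higher and 3 (9.68%) were lower at an unadjusted p under 0.05, beside 3.85% of all genes, with a median log2 fold change of -0.13. The median rests in part on single libraries, since it was -0.04 without CIE 04, -0.05 without CIE 01, -0.07 without Air 15 and -0.08 without CIE 16. It was -0.02 with the neuron covariate, -0.06 among genes higher in blood than brain and -0.03 with the neutrophil covariate and -0.05 with the unassigned share. Jak1, the kinase gene of highest level in that list, was at 324, 386 and 445 CPM in Air and 280, 374 and 425 CPM in CIE (log2 fold change -0.06, edgeR adjusted p = 0.999). Jak2 was at 99.5, 106 and 120 CPM in Air and 81.5, 111 and 125 CPM in CIE (log2 fold change -0.02, adjusted p = 0.999), and Tyk2 at 7.64, 25.3 and 37.1 CPM in Air and 14.0, 19.6 and 33.2 CPM in CIE (-0.19, adjusted p = 0.999). The groups overlapped for the 3 kinases, and the log2 fold change of Jak2 was above 0 without CIE 01 (0.03), CIE 02 (0.04), Air 09 (0.0077) or Air 12 (0.0055). Socs3, a feedback inhibitor of cytokine signaling, was at 21.0, 31.9 and 109 CPM in Air and 17.0, 20.1 and 39.6 CPM in CIE (log2 fold change -0.77, p = 0.00969), highest in Air 13, which was also highest in neutrophil genes. Mavs, the adaptor of RNA sensors, had a log2 fold change of -0.29 (p = 0.0301) and Irf9, a subunit of the factor that type I interferon activates, of -0.41 (p = 0.0412).

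Among the genes that type I interferon induces, 16 of 51 were higher and 3 (5.88%) were lower at an unadjusted p under 0.05, a share near the 3.85% of all genes. Their median, -0.09, was -0.02 without CIE 04, -0.04 without CIE 01, -0.02 with the neuron covariate and -0.0049 among genes higher in blood, and it was -0.15 among mice 01 to 12 and -0.02 among mice 13 to 20. Besides Ifitm1 the 3 were Parp9 (log2 fold change -0.65, p = 0.00365) and Rtp4 (-0.61, p = 0.0209). Rsad2, the viperin gene, was the most abundant, at 7653, 11855 and 15797 CPM in Air and 8813, 11922 and 20820 CPM in CIE (log2 fold change 0.07, p = 0.659). CIE 16 was highest, the groups overlapped, and without CIE 16 the log2 fold change of Rsad2 was -0.06. It was -0.09 among mice 01 to 12 and -0.18 with the unassigned share as a covariate. For the genes that interferon gamma induces, 9 of 23 were higher and 1 (4.35%) was lower at an unadjusted p under 0.05 (median -0.03, above 0 with limma on the deposited log2 values, at 0.02, in 5 of 11 other settings in all, and in 6 of 18 fits with 1 library left out). That gene was H2-T23 (log2 fold change -0.31, p = 0.0451), and the most abundant, B2m, was at 1148, 1661 and 2172 CPM in Air and 1590, 1834 and 2429 CPM in CIE (0.21, p = 0.105). In female blood, 9 of 33 pathway genes, 23 of 52 type I genes and 6 of 24 interferon gamma genes were higher, with medians of -0.14, -0.10 and -0.06.

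**Figure D4:**
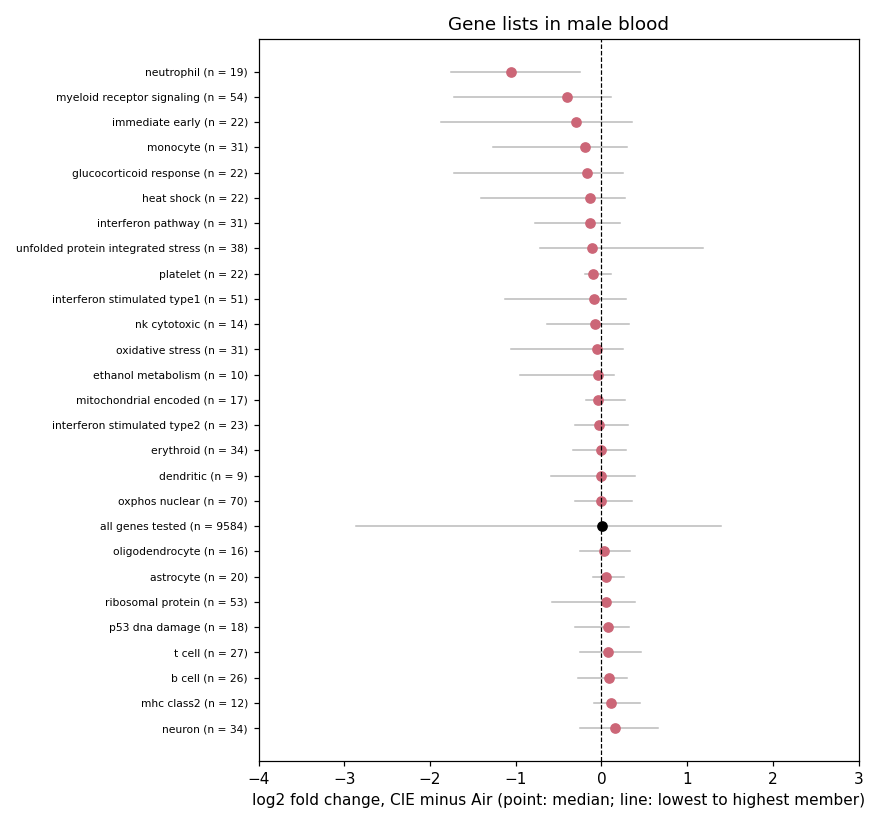
Median log2 fold change of CIE minus Air in male blood for each list with at least 9 tested genes (point), with the lowest and highest member (line) and all 9584 tested genes in black. The neutrophil list has the lowest median, -1.06, and the neuron list the highest, 0.16. The neutrophil list is the only list shown whose tested members all lie on 1 side of 0, which does not hold for its members below the filter.

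Of the stress-response genes, those of the unfolded protein and integrated stress responses were split between directions. Of 38 tested genes of the unfolded protein and integrated stress responses, 11 were higher, with a median log2 fold change of -0.11. At an unadjusted edgeR p under 0.05, 3 (7.89%) were higher and 6 (15.8%) lower, beside 1.51% and 3.85% of all genes. The median was 0.02 among genes higher in blood than brain, -0.05 at a minimum count of 30 and -0.05 without Air 09. With the unassigned share as a covariate it was -0.07, and with the neutrophil covariate -0.02. The 3 higher genes, Mthfd2, Slc7a5 and Atf5 (log2 fold change 0.48), belong to the ATF4 branch, as do Chac1 (-0.71) and Slc7a11 (-0.60) among the lower ones. Slc7a5, the large neutral amino acid transporter gene, was at 234, 322 and 487 CPM in Air and 338, 449 and 699 CPM in CIE (log2 fold change 0.41, edgeR p = 0.0130), with 8 of 8 CIE libraries above the Air median. The lower genes were Hspa5, Manf, Chac1, Dnajb11, Slc7a11 and Hsp90b1, of which Hspa5, Manf, Dnajb11 and Hsp90b1 act in folding in the endoplasmic reticulum. Hspa5, the gene of the chaperone BiP, was at 144, 154 and 163 CPM in Air and 119, 134 and 139 CPM in CIE (log2 fold change -0.22, standard error 0.0781, p = 0.00883, adjusted p = 0.671). All 8 CIE libraries lay below all 10 Air libraries, although the distance between the groups was small. The blood level of Hspa5 was 41.1% of the brain level, and its log2 fold change with the neuron covariate -0.23. Manf had a log2 fold change of -0.34 (p = 0.0114), and 8 of 8 CIE libraries lay below the Air median.

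Among heat shock genes, 5 of 22 were higher and 4 (18.2%) were lower at an unadjusted p under 0.05, beside 3.85% of all genes. Their median, -0.14, was -0.03 among genes higher in blood than brain and -0.08 without Air 09, without CIE 20 or without CIE 02, CIE 16 and CIE 20. Hspa1b was at 5.36, 16.5 and 72.2 CPM in Air and 3.90, 7.84 and 15.6 CPM in CIE (log2 fold change -1.41, edgeR p = 0.00169), and its near-identical copy Hspa1a at 5.36, 12.1 and 43.3 CPM in Air and 3.30, 7.33 and 9.92 CPM in CIE (-1.15, p = 0.00207). Reads of such copies can be split between them, so each value is uncertain on its own. Air 06 was highest in both, and the groups overlapped. The co-chaperone gene Fkbp4 had a log2 fold change of -0.43 (p = 0.00622) and was also highest in Air 06. Of 31 oxidative stress genes, 10 were higher and 6 (19.4%, beside 3.85% of all genes) were lower at an unadjusted p under 0.05 (median -0.05, but -0.15 with the neuron covariate or the unassigned share, and 0.00014, -0.01 and -0.02 without Air 07, Air 09 and CIE 05, but -0.08, -0.08, -0.11 and -0.12 without CIE 04, Air 08, Air 11 and CIE 16). Besides Mgst1 they were led by Tkt, a pentose phosphate enzyme gene (log2 fold change -0.49, p = 0.00193), and Gsto1, a glutathione transferase gene (-0.91, p = 0.00302). Gsto1 was at 236, 345 and 853 CPM in Air and 118, 196 and 425 CPM in CIE, with Air 15, Air 14 and Air 08 highest, followed by CIE 18 and CIE 05. These 5 libraries are also the ones with most skin and epithelium transcripts, whose part in the Gsto1 value was not tested.

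Glucocorticoid-responsive genes had 5 of 22 higher, 3 (13.6%) lower at an unadjusted p under 0.05 and a median of -0.17, and immediate early genes had 3 of 22 higher, 7 (31.8%) lower and a median of -0.29, beside 3.85% of all genes lower at that p. The latter median was -0.19 without Air 13. With the neuron covariate the medians were -0.11 and -0.18, and with the unassigned share as a covariate -0.08 and -0.12. Fos was at 14.4, 35.7 and 245 CPM in Air and 6.38, 20.5 and 25.3 CPM in CIE (log2 fold change -1.87, edgeR p = 0.00108). Dusp1, a phosphatase gene of both lists, was at 34.5, 56.6 and 367 CPM in Air and 22.0, 41.8 and 79.2 CPM in CIE (-1.27, p = 0.00541). Il1r2, the decoy receptor gene for interleukin 1, was at 3.40, 17.1 and 77.2 CPM in Air and 1.42, 5.52 and 14.6 CPM in CIE (-1.72, p = 0.00403). The 3 genes were highest in Air 13 and Air 10, the libraries with most neutrophil transcripts, and the groups overlapped. Fosl2, Dusp5 and Fkbp5 had log2 fold changes of -0.98, -0.75 and -0.65 (p = 0.00221, 0.00436 and 0.0170). With the neutrophil level as a covariate the median of the immediate early list was -0.01, that of the glucocorticoid list 0.11 and the value of Dusp1 0.11.

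For p53 and DNA damage genes 12 of 18 were higher (median 0.07, from 0.04 without CIE 18 to 0.13 without CIE 04, but -0.10 among genes higher in blood than brain), and for genes of ethanol metabolism 4 of 10 (-0.04, from -0.07 without Air 08 to -0.0033 without Air 07, but 0.07 among those genes and 0.0021 at a minimum count of 30), with 0 genes of either list at an unadjusted p under 0.05 in edgeR and 0 called. Ribosomal protein genes had 35 of 53 higher, with a median of 0.05. With 1 library left out that median ran from 0.03 without CIE 03 to 0.10 without CIE 04. It was -0.0059 with the unassigned share as a covariate and 0.20 among genes higher in blood. At an unadjusted edgeR p under 0.05, 1 ribosomal gene (1.89%) was higher and 2 (3.77%) lower, beside 1.51% and 3.85% of all genes. Nuclear genes of oxidative phosphorylation had 34 of 70 higher, with a median of -0.0018. At that p 1 of them (1.43%) was lower, beside 3.85% of all genes. Their median was above 0 with DESeq2-type size factors (0.000149), limma-voom (0.00086) and limma on the deposited log2 values (0.0029), in 6 of 11 other settings in all. Genes of the mitochondrial genome had 7 of 17 higher (median -0.04, above 0 with DESeq2, at 0.005, in 3 of 11 other settings in all and without Air 07, Air 09 or CIE 18).

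A further set of genes differed widely among the Air libraries. Scd3, Sptlc3, Elovl5, Plin2 and Hsd17b11, which act in lipid synthesis or on lipid droplets, and the protein-coding gene 9430007A20Rik were chosen after their values were seen and had log2 fold changes of -2.41, -2.86, -1.63, -1.88, -1.33 and -2.41 (edgeR p from 0.000882 to 0.0021, adjusted p 0.445). Elovl5, a fatty acid elongase gene, was at 66.8, 190 and 874 CPM in Air and 54.9, 83.8 and 198 CPM in CIE. Scd3, a desaturase gene, was at 7.48, 65.4 and 389 CPM in Air and 2.29, 15.5 and 92.2 CPM in CIE. Air 06, Air 07, Air 14 and Air 10 were highest for all 6 genes, CIE 01 was the highest CIE library, and the groups overlapped. These levels vary among the Air mice by more than the medians of the groups differ. No fixed list of lipid genes was counted, so the 6 genes do not describe lipid genes as a whole.

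Brain transcripts were present in every male blood library. Compared with the brain libraries of the same mice, the median level of the 36 neuron genes with at least 10 CPM in brain was 17.2% in blood, and 35 of them lay between 10% and 30%. The exception was Nrgn, at 137%, which platelets express as well. The medians for oligodendrocyte, astrocyte and microglia genes were 17.1%, 18.5% and 20.7%, with Car2 (1310%), Clu (154%) and P2ry12 (783%) as genes that blood cells also express. This median over genes was chosen as the description after the data were seen, since sums over the lists were set by those few genes. The neuron covariate of the fits is instead the neuron list summed, Nrgn included, as percent of the brain of the same mouse. Nrgn is the most abundant gene of that sum, with a mean of 1390 CPM in blood.

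Taken per library, the median percent for neuron genes was 11.5, 16.6 and 21.7 in Air and 9.57, 17.2 and 26.3 in CIE. CIE 04, CIE 01 and CIE 02 had most, CIE 20, Air 15 and CIE 18 least, and the groups overlapped. Of 34 tested neuron genes, 29 were higher in CIE, with a median log2 fold change of 0.16 and 0 genes at an unadjusted p under 0.05 in edgeR. The median was 0.08 without CIE 04, 0.09 without CIE 01 and 0.10 without Air 14, and 0.18 in each range of mouse numbers. With the neutrophil level as a covariate it was 0.05. With the neuron level of each library as a covariate Plet1 was again the only gene called (log2 fold change -2.33, edgeR adjusted p = 0.00308). The median of the neuron genes was then -0.07. The neuron level comes from the same genes, so this median says nothing about their change. Of oligodendrocyte genes 11 of 16 were higher (median 0.04, below 0 among genes higher in blood and without CIE 05 or Air 13), of astrocyte genes 12 of 20 (0.05, below 0 with the neuron covariate, at -0.13, and without CIE 04 or Air 14) and of microglia genes 4 of 7 (0.0042, below 0 with library size alone, at -0.01, with limma-voom, at -0.07, and in 6 of 11 other settings in all). In female blood, 30 of 31 neuron genes were higher in CIE, with a median of 0.56. At an unadjusted edgeR p under 0.05, 17 of them were higher, beside 7.5% of all genes tested in female blood.

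Hypothalamic peptide genes marked 4 libraries. Pmch, the gene of melanin-concentrating hormone, was at 5.01 CPM in Air 13, 2.53 in Air 14, 3.83 in CIE 16 and 5.66 in CIE 18, from 5, 3, 3 and 7 reads. In the other 14 libraries it ranged from 100.6 to 277.9 CPM, while Snap25 was at 220 CPM or more in all 18. Hcrt, the orexin gene, was at 0 to 3.37 CPM in the same 4 libraries and at 29.8 CPM or more in the others. Oxt and Avp were lower in each of the 6 libraries numbered 13 to 20 than in each of the other 12, with Air 15 and CIE 20 between the 4 and the 12 for Oxt. Of 7 tested genes of that list, 2 (28.6%) were lower at an unadjusted edgeR p under 0.05, beside 3.85% of all genes. They were Cartpt and Hdc. Hdc also stands on the neutrophil list, and its blood level was 279% of the brain level. In CIE 1 of the 7 genes was higher, and the median log2 fold change was -0.29. That median was -0.53 without CIE 03, and -0.09, -0.18, -0.14, -0.13 and -0.10 without Air 06, Air 09, Air 12, CIE 16 and CIE 18, and -1.28 among genes higher in blood than brain. Without these 4 libraries, 2 of each group, Plet1 was the only gene called (log2 fold change -2.51, edgeR adjusted p = 0.00762), 140 genes were higher and 392 lower at an unadjusted p under 0.05, and 14 of 18 neutrophil genes were lower at that p.

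Genes that blood expresses more than brain were also fitted on their own. Of the 9584 tested genes, 2401 had a higher mean level in male blood than in each brain region, and among these alone Plet1 fell (log2 fold change -2.40, edgeR adjusted p = 0.000333) and Mthfd2 rose (1.29, adjusted p = 0.0186). Neutrophil genes were in that set, with 0 of 19 higher and a median of -0.98. These are the same 19 members and libraries as in the main fit, so the count is no separate result and the limit of the filter holds for it too. For other tissues, 4 of 32 liver genes were tested, with 1 higher and a median of -0.47, led by Hp. That median ran from -0.99 among genes higher in blood and -0.95 with limma on the deposited log2 values to -0.11 with DESeq2 and -0.06 without a filter, and was -0.14 with the unassigned share as a covariate. Of 20 skeletal muscle genes 0 were tested, with a summed level of 28.2, 34.9 and 185 CPM in Air and 29.6, 34.9 and 42.6 CPM in CIE. Of 12 adipocyte genes 2 were tested, 1 of them higher (median -0.11, above 0 with DESeq2, at 0.09, with limma on the deposited log2 values, at 0.10, and in 5 of 11 other settings in all), and the defining gene Adipoq was at 0 CPM in both medians.

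Of the 9906 genes tested for the sex-by-CIE term in blood, Pex19, which encodes a receptor for peroxisomal membrane proteins, had the smallest p. In males it was at 38.7, 51.0 and 81.7 CPM in Air and 24.8, 37.2 and 44.7 CPM in CIE (log2 fold change -0.57, edgeR p = 0.000853, adjusted p = 0.445). In females it was at 22.7, 29.7 and 36.4 CPM in Air and 28.6, 38.9 and 61.0 CPM in CIE (0.50, p = 0.00192, adjusted p = 0.249). The groups overlapped in both sexes, with 8 of 8 male CIE libraries below the male Air median. The sex-by-CIE term was -1.05 (edgeR p = 5.78e-06, adjusted p = 0.0572), and it passed with DESeq2 (adjusted p = 0.0423) and with a minimum count of 30 (0.0445). Over the alternatives tried, its adjusted p ranged from 0.0423 to 0.724.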

How the data were processed

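The authors aligned the reads and deposited, for each library, the count of reads on each gene, as raw counts without normalization, with Bowtie2, SAMtools, HTSeq, limma 3.42.2 and GRCm38 (mm10) named in the submitters' processing notes. They also deposited log2 values of the male blood libraries, 14031 lines of which 4 name no gene. The column names of these values end in run2, which the labels do not explain, and libraries were matched by the rest of the name. Each count file holds 55385 genes, 92 ERCC spike-ins and 5 summary lines, and the last 2 kinds were dropped. The summary lines held a median of 33.8% of reads in Air and 34.0% in CIE. Symbols came from a table of Ensembl identifiers, with 54487 identifiers matched exactly, 657 without version and 241 unmatched, and gene positions from GENCODE on GRCm38.

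CIE and Air were compared in the 18 male blood libraries with edgeR 4.0.16 in R 4.3.3 (TMM, quasi-likelihood test, filterByExpr with its count minimum at 10 and its total minimum at 15, prior count 2 for log2 CPM, Benjamini-Hochberg adjustment, threshold 0.05). The sex-by-CIE term was fitted on all blood libraries. For shares of reads, mice were exchanged between groups in a two-sided exact permutation test. The fit was tested on simulated data. Libraries held 979036 to 1685240 reads on genes, which limits the precision for genes of a few CPM. No pair of libraries in a group was closer than sampling noise (lowest chi-square per degree of freedom 1.80 over 73 pairs, 0 identical). Brain levels came from 109 brain libraries of both sexes, the female ones for the sex-by-CIE covariate alone.

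The members and gene lists were chosen with earlier results of these data known, so lists are described by counts and medians and have no p. Genes were named by rule: those called, the 10 higher and 10 lower of smallest p not called, in each list up to 3 of smallest p and the most abundant, the gene of smallest p for the sex-by-CIE term, Jak1, Jak2 and Tyk2, label checks, and genes called by an alternative. Not all of these genes are described, and the lipid genes, the higher and lower stress genes beyond the rule, and the motifs were chosen after values were seen. Alternatives were other size factors, filters, dispersion estimates and thresholds, DESeq2 1.42.0, limma 3.58.1 on the counts and on the deposited log2 values, a neuron covariate, genes higher in blood, both sexes in 1 fit, and each library left out. Fits by mouse number, with the neutrophil level or the unassigned share as a covariate, and without 3, 4 or 5 libraries were chosen after seeing the data.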

Additional observations from a re-analysis of the deposited data

Results flagged for a closer look

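In 17 of 216 groups of values, 1 library stood far from the other libraries of its group, judged by its gap to the nearest one relative to the range of the group, on the log2 scale for levels. Chance alone marks about 1 in 20 groups, and lists that share libraries are not independent. CIE 18 was the highest CIE library for S100a9 (2310 CPM), S100a8 (1290), Fkbp5 (55.0) and the summed neutrophil list (7020). Air 13 was the highest Air library for Socs3 (109) and the summed monocyte list (4410). In CIE 16, Tcf4 (196), a gene of the dendritic list whose blood level was 24.6% of that in brain, in the range of most neuron genes, the summed lists of type I interferon genes (44200), ethanol metabolism (9360) and globin (3520) were highest in CIE, and the mitochondrial share, 6.94%, was lowest. CIE 04 was lowest for the summed MHC class II list (959) and B cell list (855). Single values that stood apart were Plekhs1 in Air 15 (30.5, highest), Fos in CIE 02 (6.38, lowest), Elovl5 in CIE 01 (198, highest) and the summed skeletal muscle list in Air 10 (185, highest).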

How the results depend on the processing

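Plet1 was lower in CIE in all other settings tried and was called in all but 2, the fit of mice 13 to 20 alone and the fit without CIE 02, CIE 16 and CIE 20, which called 0 genes each. With each of the 18 libraries left out, 1 to 2 genes were called. Chosen after seeing the data were the neutrophil and unassigned-share covariates, the range of mouse numbers as a covariate (3 genes called), mice 01 to 12 (3 called) or 13 to 20 alone, and fits without 3, 4 or 5 libraries. The 5 were the Air libraries highest in the lipid genes named above (Air 06, Air 07, Air 10 and Air 14) and the highest CIE library, CIE 01. Those genes, like the neutrophil genes of that covariate, had lower values in CIE, so both choices use values that differ between the groups. Without the 5, Plet1 was the only gene called, with 85 genes higher and 211 lower at an unadjusted p under 0.05 and 14 of 19 neutrophil genes lower. With the unassigned share 89 genes were higher and 5 neutrophil genes lower, and without the 3 libraries 8 neutrophil genes were lower. The number of genes called was 2 with library size alone, 5 without a filter, 3 with DESeq2 and 2 among genes higher in blood than brain. Mthfd2 was called in these 4 settings and without Air 07 or CIE 05, Asprv1 without a filter, with DESeq2 and without CIE 18, G0s2 and Cebpb without a filter, Cebpb also among mice 01 to 12, and Pglyrp1 and Slc6a14 with the mouse number covariate. Among mice 13 to 20, 56 genes were higher and 138 lower at an unadjusted p under 0.05, with 3 neutrophil genes lower. At an unadjusted p under 0.05, higher genes numbered 452 without a filter, 72 at a minimum count of 30, 236 with limma on the deposited log2 values, 91 among genes higher in blood and 77 with the neutrophil covariate. Lower genes numbered 834 without a filter, 212 at a minimum count of 30, 556 with DESeq2, 146 among genes higher in blood and 206 with that covariate. With 1 library left out, higher genes ranged from 109 to 268 (268, 250, 254 and 255 without Air 07, Air 09, CIE 18 and CIE 20), lower genes from 270 to 551 and lower neutrophil genes from 10 to 18. Where the filter or the set of genes differed, the number of genes tested differed too, and for other settings the cause was not tested. For the sex-by-CIE term, 1 gene was called with DESeq2, with a minimum count of 30 and at a threshold of 0.1.

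Of 2437 values of single genes, 21 were reversed. With the unassigned share Jak2 was at 0.0108 and Rsad2 at -0.183, and without CIE 02, CIE 16 and CIE 20 Rsad2 was at -0.17. Among mice 13 to 20 Jak1 was at 0.00086, Jak2 at 0.0761 and Cd36 at 0.164, and among mice 01 to 12 Rsad2 was at -0.0913. With the neutrophil covariate Jak1 was at 0.065, Jak2 at 0.0865, Tyk2 at 0.0374 and Dusp1 at 0.111. Among genes higher in blood Jak1 was at 0.0396 and Jak2 at 0.0738. With the neuron covariate Jak2 was at 0.0126 and Snap25 at -0.00163. Snap25 is itself a neuron gene, so its value there says nothing about its change. With 1 library left out Jak2 ranged from -0.0508 to 0.0398, above 0 without CIE 01, CIE 02, Air 09 or Air 12, and Rsad2 from -0.0646 (without CIE 16) to 0.157. Rsad2 was at -0.03 without the 4 libraries low in hypothalamic peptides. The globin share differed by -0.000395 with all reads as denominator. The cause was not tested. Of 1257 list medians, 22 moved by more than 1 SD between libraries. Of 34 lists, 17 had a median of the opposite sign in at least 1 of the settings with all libraries, those chosen after seeing the data aside, 15 with 1 library left out, and 14 in neither. With that covariate the monocyte, oxidative stress and liver medians were 0.02, 0.0016 and 0.09, and the astrocyte and microglia medians -0.06 and -0.16. Without the 4 libraries the dendritic, mitochondrial and oxidative phosphorylation medians were 0.10, 0.0081 and 0.00022 and the endothelial median -0.07. Among mice 13 to 20 the dendritic, basophil, oxidative stress, ethanol metabolism, natural killer, platelet, erythroid, adipocyte and oxidative phosphorylation medians were 0.16, 0.04, 0.0074, 0.03, 0.05, 0.06, 0.03, 0.33 and 0.06 and the T cell median -0.06. Among mice 01 to 12 the MHC class II, B cell and endothelial medians were -0.0087, -0.0097 and -0.18. With the mouse number covariate the endothelial and oxidative phosphorylation medians were -0.0045 and 0.0037. With the unassigned share the dendritic and interferon gamma medians were 0.15 and 0.03 and the endothelial and ribosomal medians -0.02 and -0.0059. Without CIE 02, CIE 16 and CIE 20 the basophil and platelet medians were 0.11 and 0.00029 and the MHC class II, B cell, endothelial and ribosomal medians -0.02, -0.04, -0.06 and -0.03. Without the 5 libraries the dendritic, basophil, erythroid, adipocyte and oxidative phosphorylation medians were 0.0090, 0.07, 0.03, 0.20 and 0.0075 and the microglia median -0.08. No paired analysis was possible because CIE and Air mice carry different numbers. Groups of 8 and 10 mice, the depth of the libraries and brain transcripts in all of them limit what these values show.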
